A study of Bos taurus
Mus musculus with 10 samples.

Results

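Secreted Wnt antagonists are extracellular proteins classed as inhibitors of Wnt signalling, although the action of DKK2 and DKK3 varies with the setting. The 8 genes described here are SFRP1, SFRP2, SFRP4, SFRP5, FRZB, DKK2, DKK3 and WIF1. They were followed in 2 kinds of cells grown together: bovine embryonic stem cells and the mouse fibroblasts that fed them. The 8 genes were chosen by name, with earlier results of these data known. They make up 8 of 27590 gene rows in the bovine table and 8 of 31349 in the mouse table, and all 8 were found in both. Bovine members were matched by symbol. Mouse members were found by their NCBI gene IDs, from a fixed pairing of ID and name, since the deposited mouse table lists IDs alone.

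Wnt proteins bind Frizzled receptors and the co-receptors LRP5 and LRP6, which blocks the destruction complex built on AXIN and lets beta-catenin reach the nucleus. The secreted frizzled-related proteins and FRZB carry a Frizzled-like domain that binds Wnt, and WIF1 binds Wnt through a domain of its own. DKK2 binds LRP5 and LRP6 instead and can inhibit or, in some settings, activate the pathway, whereas DKK3 is a divergent family member whose action on Wnt signalling varies between cell types.

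Wild-type stem cells were held for 1 day in a medium without IWR-1 (labelled IWRR) or in the complete medium with 2.5 µM IWR-1 (labelled IWR). The compound inhibits tankyrase, the enzyme that marks AXIN for breakdown, and thereby dampens beta-catenin signalling. Before the experiment every line had been cultured in a medium containing it. Stem cell lines 1, 2, 4, 8 and 11 came from blastocysts of day 7.5, and each line gave 1 well per medium, hence 5 libraries in each of 2 media. The feeders in all wells were fibroblasts of CD-1 mouse fetuses (E13.5), treated with mitomycin C for 2 h so that they no longer divided, and the labels do not say whether the wells shared 1 preparation of them. Both cell types of a well were sequenced together as poly(A) RNA, and reads were assigned to each genome separately.

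Libraries held 48064953 to 64345738 reads on bovine genes and 17101894 to 35223039 reads on mouse genes. Values are normalised reads, a gene's reads divided by a size factor of the library, and they are not per length, so levels are compared between wells for the same gene and never between genes. The 2 tables were scaled separately. The sources used here do not give the handling of reads that matched both species. The mouse share of reads averaged 26.8% ± 8.45 without IWR-1 and 30.4% ± 7.57 with it (SD, n = 5 each) and was lower without it in 5 of 5 lines (exact two-sided sign-flip test, p = 0.0625, the smallest p that 5 pairs allow). Line 4 had the highest share, at 41.4% without IWR-1 and 42.3% with it, against 21.2% to 33.3% in the wells of the other lines. The stem cell labels were checked on POU5F1, the defining pluripotency factor, which reached 21776 normalised reads without IWR-1 and 19326 with it in line 4, against 18294 to 58134 without and 20793 to 62019 with it elsewhere. Line 4 stood apart in its bovine fibroblast genes, and in other genes given below. The collagen gene COL1A2 stood at 30918 without IWR-1 and 28291 with it in line 4, against 89.7 to 308 and 134 to 372 elsewhere. COL1A1 and VIM were also highest there, by smaller factors. COL1A1 stood at 49905 and 44002, against 8196 to 32660 and 6825 to 21943. VIM stood at 117893 and 114746, against 39381 to 75376 and 41682 to 83132. The pluripotency factor SOX2 was lowest in line 4, at 13371 and 13611, against 14958 to 19067 and 14750 to 22072. NANOG lay within the range of the other lines. In a bulk well, fewer cells of a type and less RNA per cell cannot be told apart.

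The first question was whether the antagonists of the feeders changed when IWR-1 was withdrawn. Among mouse genes, 3 of the 7 members that could be tested rose: the Wnt binder Sfrp2 and the Dickkopf genes Dkk2 and Dkk3. None fell, and 4 were not called. Over all 15871 mouse genes tested, 2.14% rose and 2.05% fell, 4.19% in all. The members were chosen with earlier results of these data known, so these shares give a scale and are no test of the members. A gene was tested if it had at least 10 normalised reads in at least 5 libraries, and it was called at a Benjamini-Hochberg adjusted p under 0.05 in limma with the line as a block. The 7 tested members had a median log2 fold change of 0.26, and all tested genes one of -0.00041. Sfrp5 was left out by the filter, with 0 libraries at 10 or more.

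Sfrp2 had the largest fold change of the 3. It stood at 713, 554, 1442, 188 and 134 normalised reads in lines 1, 2, 4, 8 and 11 without IWR-1, against 370, 356, 826, 84.5 and 73.2 with it. Every line was higher without IWR-1, although the media overlapped, with line 4 far above lines 8 and 11 in both. The log2 fold change was 0.88 ± 0.10 SE, or 1.84-fold on the log2(value + 1) scale (limma adjusted p = 0.00062). Within lines it ran from 0.64 in line 2 to 1.14 in line 8. Bovine SFRP2 had far more reads in the same wells, and whether bovine reads entered the mouse count was not tested.

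Dkk2, whose product binds LRP5 and LRP6, stood at 3228, 4749, 4950, 4820 and 9712 normalised reads in lines 1, 2, 4, 8 and 11 without IWR-1, against 1987, 3278, 3158, 3406 and 6811 with it. The rise was seen in 5 of 5 lines and was of similar size in each, with log2 changes of 0.50 to 0.70. Line 11 was highest and line 1 lowest in both media. The log2 fold change was 0.58 ± 0.06 SE, or 1.49-fold (limma adjusted p = 0.00047).

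Dkk3, the divergent Dickkopf, stood at 1675, 2028, 1904, 1900 and 1024 normalised reads in lines 1, 2, 4, 8 and 11 without IWR-1, against 1238, 1343, 1303, 1385 and 699 with it. Here the media separated in lines 1, 2, 4 and 8, with all 4 wells without IWR-1 above all 4 with it. Line 11 was lowest in both media. The log2 fold change was 0.52 ± 0.06 SE, or 1.43-fold (limma adjusted p = 0.00096), and line changes ran from 0.44 to 0.59.

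**Figure D1:**
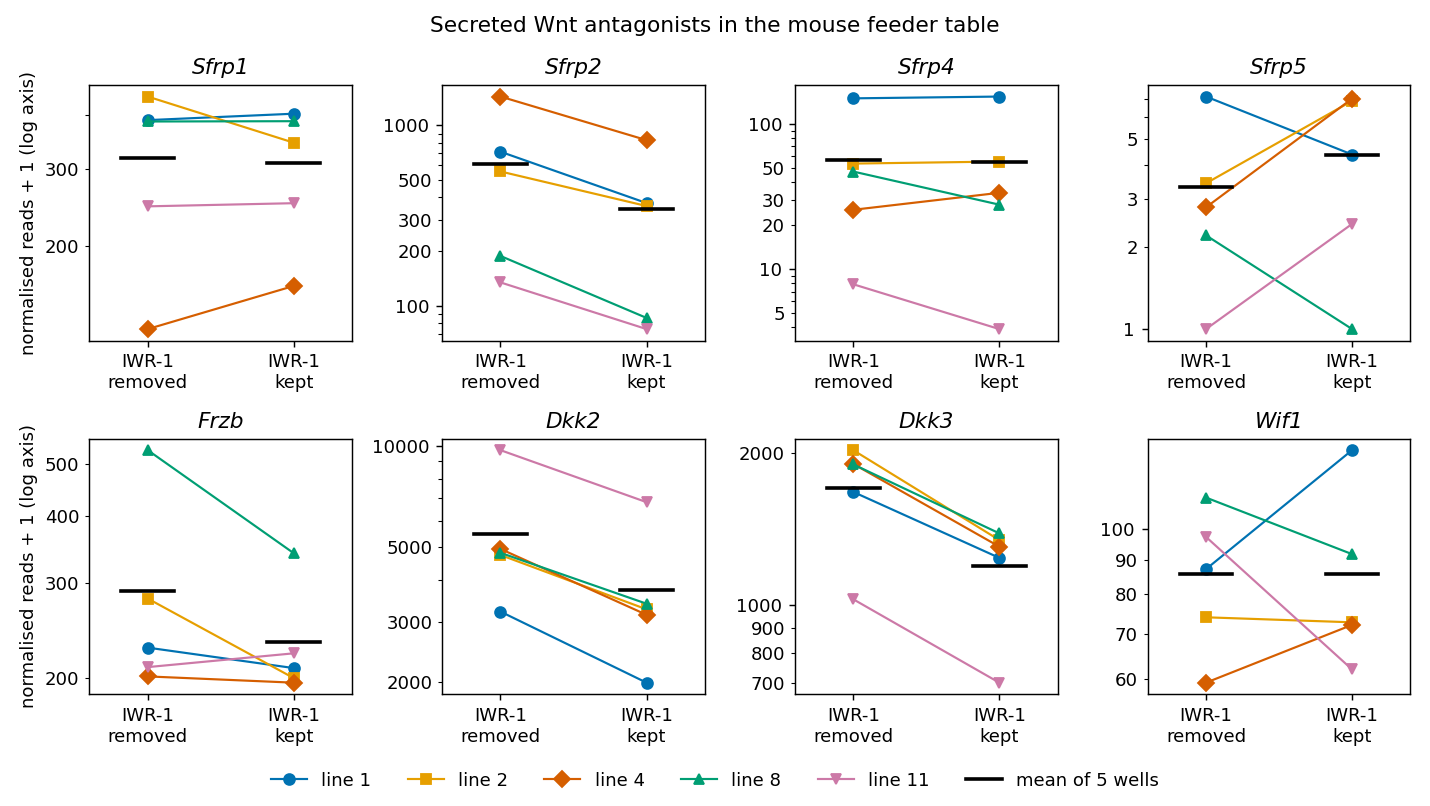
Normalised reads + 1 (log axis, a separate range per panel) of the 8 antagonists in the mouse table, for wells without IWR-1 on the left of each panel and wells with it on the right. Coloured lines join both wells of a stem cell line and black bars are means of 5 wells. Sfrp2, Dkk2 and Dkk3 slope the same way in all 5 lines, and Sfrp5 stays at or below 6.15 normalised reads.

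Sfrp2, Dkk2 and Dkk3 were each higher without IWR-1 in 5 of 5 lines, as were 7.83% of all tested mouse genes, while 7.83% were lower in all 5 and no tested member was. Their calls were also made with any 1 line left out, with log2 fold changes of 0.81 to 0.94 for Sfrp2, 0.55 to 0.60 for Dkk2 and 0.50 to 0.54 for Dkk3. They rest on the comparison within lines: without the line as a block, limma called none of the 3 (adjusted p = 1.00 for Sfrp2, Dkk2 and Dkk3). The mouse share of reads moved with the medium, and with that share as a covariate beside the line the estimates were 0.86 ± 0.23 for Sfrp2, 0.70 ± 0.14 for Dkk2 and 0.49 ± 0.15 for Dkk3 (SE), with limma adjusted p of 0.592, 0.38 and 0.708. In line 4 the share differed least between the wells, by -0.92 percentage points. The log2 changes there were 0.80 for Sfrp2, 0.65 for Dkk2 and 0.55 for Dkk3, from 1 well per medium and hence with no test. Share and medium moved together in every line, so neither these values nor the covariate fit can tell their parts in the rises apart. Fibroblast markers of the mouse table could not be summed, since its other IDs are not paired with names in the sources used here.

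The other Wnt-binding members of the feeders were not called. Sfrp1 had 388, 439, 128, 385 and 245 normalised reads in lines 1, 2, 4, 8 and 11 without IWR-1, against 401, 344, 161, 385 and 250 with it, for a log2 fold change of -0.01 (95% interval -0.24 to 0.22; limma adjusted p = 0.98). Line 4 was lowest in both media. Frzb, which encodes a Wnt-binding protein of the same family, had 226, 280, 200, 530 and 208 without IWR-1, against 207, 199, 195, 340 and 221 with it. It was higher without IWR-1 in 4 of 5 lines, most in lines 2 and 8, for a log2 fold change of 0.24 (95% interval -0.02 to 0.50; limma adjusted p = 0.36).

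Sfrp4 was low and differed mainly by line. Its normalised reads were 149, 52.3, 24.6, 46.0 and 6.87 in lines 1, 2, 4, 8 and 11 without IWR-1, against 153, 54.0, 32.5, 26.8 and 2.87 with it, and its log2 fold change was 0.26 (95% interval -0.29 to 0.81; limma adjusted p = 0.707), with estimates from -0.62 to 0.42 under the alternatives. Wif1 ranged from 58.3 to 110 without IWR-1 and from 61.0 to 130 with it, and the log2 fold change was 0.02 (95% interval -0.39 to 0.42; limma adjusted p = 0.98). Its lines went both ways, with changes of -0.58 in line 1 and 0.65 in line 11. Sfrp5 had 5, 2, 3, 1 and 0 recovered reads without IWR-1, against 3, 6, 10, 0 and 2 with it, and at this depth no difference was detectable. A count of 0 allows up to 3 reads, which is 2.95 normalised reads in the line 11 well without IWR-1 and 3.09 in the line 8 well with it; such limits cover counting error only.

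The second question was whether the stem cells changed their own antagonists. Of the 8 bovine members 6 could be tested, and 0 rose and 0 fell in limma with the line as a block, where 0.886% of all 18506 tested bovine genes rose and 0.0648% fell, 0.951% in all. At an unadjusted p under 0.05 in limma there was 1 of the 6, SFRP2, and 1870 of all 18506 genes (10.1%), and edgeR and DESeq2 with the same block also called 0, with no adjusted p from DESeq2 for SFRP4. The 6 members had a median log2 fold change of 0.11, and all tested genes one of -0.0046.

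SFRP1, a Wnt-binding antagonist, stood at 26547, 33575, 6455, 25007 and 33975 normalised reads in lines 1, 2, 4, 8 and 11 without IWR-1, against 24662, 30544, 8384, 26589 and 37502 with it. The wells of line 4 were the lowest in either medium, while the other 4 lines lay within 24662 to 37502. The log2 fold change was -0.07 (95% interval -0.25 to 0.10; limma adjusted p = 0.876), and it was 0.0029 without line 4.

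SFRP2, the relative that rose in the feeders, stood at 9956, 12078, 12297, 11963 and 21919 normalised reads in lines 1, 2, 4, 8 and 11 without IWR-1, against 8607, 11484, 12068, 9602 and 21144 with it. Line 11 stood above the other lines in both media. SFRP2 was higher without IWR-1 in 5 of 5 lines, as were 6.2% of all tested bovine genes (4.92% were lower in all 5, and no tested member was), but by a log2 fold change of 0.14 ± 0.06 SE it was not called (95% interval 0.0014 to 0.27; limma adjusted p = 0.49).

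FRZB stood at 308, 606, 1461, 1085 and 1011 normalised reads in lines 1, 2, 4, 8 and 11 without IWR-1, against 327, 630, 1511, 1033 and 1176 with it. The lines kept nearly the same order in both media, with line 4 highest and line 1 lowest, and the log2 fold change was -0.07 (95% interval -0.22 to 0.09; limma adjusted p = 0.87). DKK3 stood at 5252, 3990, 3676, 3722 and 3452 in the same lines without IWR-1, against 4593, 3861, 3853, 3402 and 3232 with it. Line 1 was highest in both media, and the log2 fold change was 0.08 (95% interval -0.05 to 0.20; limma adjusted p = 0.766). The mouse gene's log2 fold change of 0.52 had a 95% interval of 0.38 to 0.65, but the difference between the species was not tested, since the tables were scaled separately.

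The low members were measured less precisely. SFRP4 ranged from 21.7 to 49.9 normalised reads without IWR-1 and from 10.7 to 30.1 with it, for a log2 fold change of 0.49 (95% interval -0.18 to 1.15; limma adjusted p = 0.696). On log2(CPM + 1), which shrinks low genes, the estimate was 0.14 with either TMM or total scaling, and with the mouse share as a covariate it was 0.94. Its changes were 1.11 and 1.19 in lines 4 and 8 and -0.27 and -0.24 in lines 1 and 11. SFRP5 ranged from 62.6 to 94.6 without IWR-1 and from 52.4 to 76.9 with it, for a log2 fold change of 0.31 (95% interval -0.07 to 0.69; limma adjusted p = 0.643), with the largest change in line 4, at 0.84. Its estimate was 0.17 without line 4, 0.16 on log2(CPM + 1) with total scaling and 0.69 with the covariate.

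**Figure D2:**
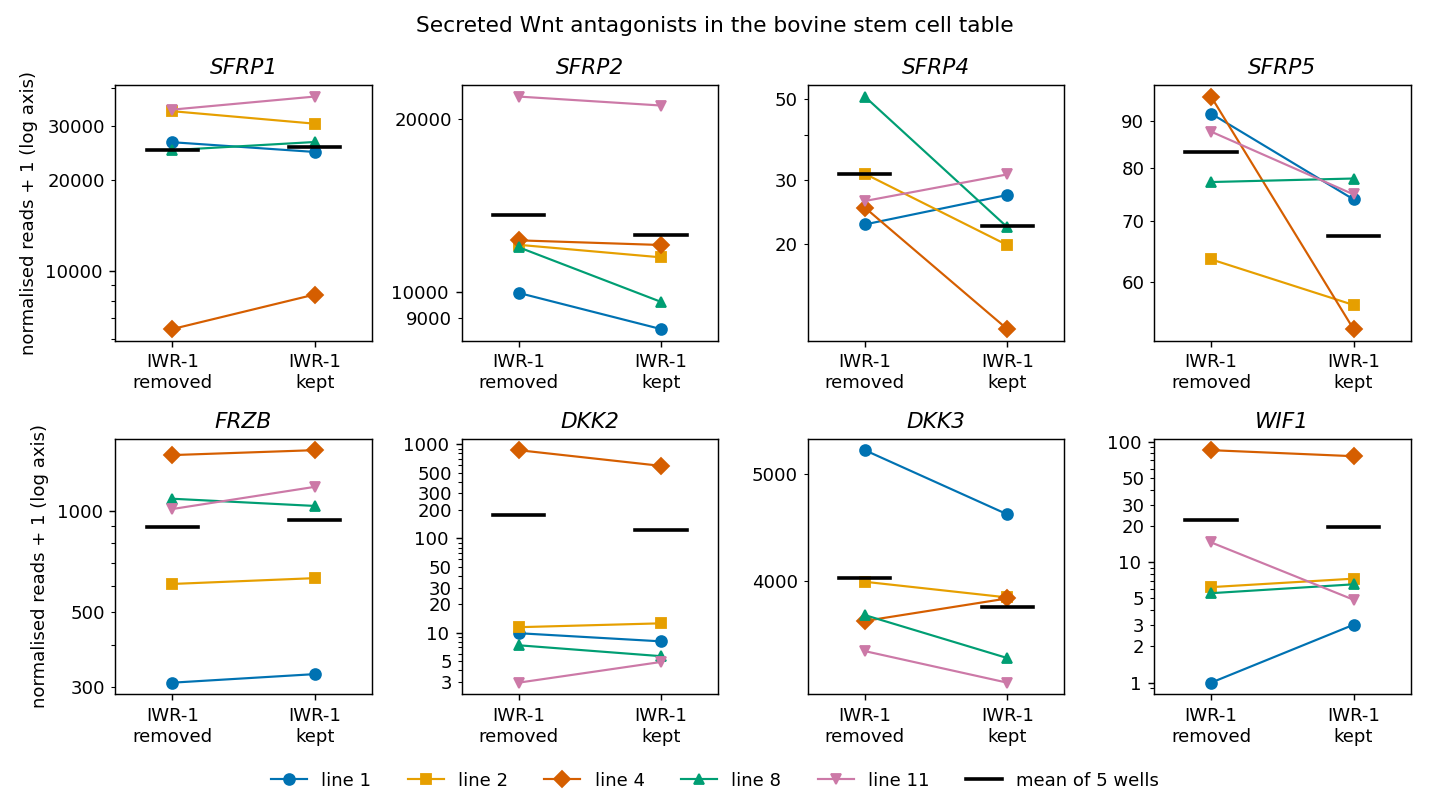
Normalised reads + 1 (log axis, a separate range per panel) of the 8 antagonists in the bovine table, for wells without IWR-1 on the left and wells with it on the right. Coloured lines join both wells of a stem cell line and black bars are means of 5 wells. Line 4 lies below the other lines for SFRP1 and above them for FRZB, DKK2 and WIF1 in both media.

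DKK2 and WIF1 were left out by the filter and stood mainly in line 4. DKK2 had 9, 10, 748, 7 and 2 recovered reads in lines 1, 2, 4, 8 and 11 without IWR-1, against 7, 11, 494, 5 and 4 with it. In normalised reads that is 863 without IWR-1 and 588 with it in line 4, against 1.95 to 10.4 without and 3.89 to 11.6 with it elsewhere, so line 4 was 113 and 100.3 times the median of the others. WIF1 had 0, 5, 73, 5 and 14 recovered reads without IWR-1, against 2, 6, 63, 6 and 4 with it, where a count of 0 allows up to 3 reads. In normalised reads line 4 stood at 84.3 without IWR-1 and 75.0 with it, against 0 to 13.6 without and 2.02 to 6.30 with it elsewhere. Within line 4 the log2 change was 0.55 for DKK2 and 0.17 for WIF1, with 1 well per medium and hence no test.

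**Figure D3:**
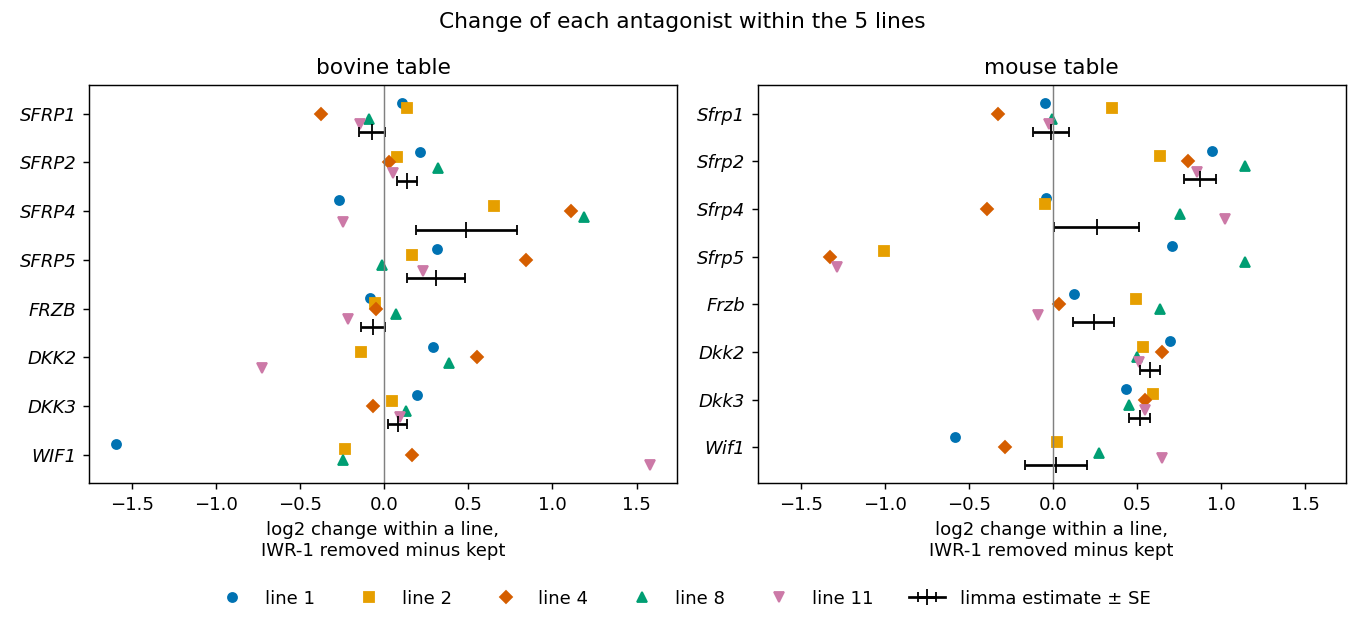
Log2 change within each line, without minus with IWR-1, for the 8 antagonists in the bovine table (left) and the mouse table (right). Symbols are lines and black bars are limma estimates ± SE, drawn for tested genes only; mouse Sfrp2, Dkk2 and Dkk3 lie wholly above 0, from 0.44 to 1.14.

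Between stem cell lines, 4 of 6 tested bovine members differed (limma F test of the line term, adjusted p under 0.05), a share near the 66.5% of all tested genes that did. These were FRZB (adjusted p = 5.55e-07), SFRP1 (adjusted p = 7.75e-07), SFRP2 (adjusted p = 1.67e-05) and DKK3 (adjusted p = 0.00261), but not SFRP4 (adjusted p = 0.417) or SFRP5 (adjusted p = 0.506). Both wells of a line were passaged from that line, so these p-values set the lines against the spread between wells only.

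Ordered by the mean of both wells, SFRP1 ran from line 11 through 2, 8 and 1 to 4, with means of 35739 and 7420 at the ends, and lines 8 and 1 overlapped. FRZB ran from line 4 through 11, 8 and 2 to 1, with means of 1486 and 318 at the ends, and lines 11 and 8 overlapped. SFRP2 was separate in line 11 only, at 21531, while lines 4, 2, 8 and 1 overlapped their neighbours between 12183 and 9281. DKK3 had a narrower range, with means of 4922 in line 1 and 3342 in line 11, and lines 4, 8 and 11 overlapped their neighbours. Line 11, highest for SFRP1 and SFRP2, was thus lowest for DKK3, and line 4, lowest for SFRP1, was highest for FRZB.

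Line 4 also differed in its marker genes. Of 21 fibroblast markers 19 were highest in line 4 in both media, while LUM and TWIST2 were highest there without IWR-1 only. The summed level of the 21 was 370143 normalised reads without IWR-1 and 331727 with it in line 4. Elsewhere it was 72211 to 192305 without and 67683 to 165258 with it. Values are not per length, so long or abundant genes lead such a sum. VIM was its largest part in line 4, at 117893 and 114746. FAP, a marker of activated fibroblasts, stood at 12.7 and 19.0 in line 4 and was at 0 in all 8 wells of the other lines. Of 9 stem cell markers found, 4 were lowest in line 4 in both media. Its neural and neural crest markers summed to 10423 without IWR-1 and 11184 with it. Elsewhere the sum was 2239 to 8989 without and 2364 to 7768 with it. Of 7 markers found PAX3, PAX6, SOX1 and TFAP2B were highest in line 4 in both media. FOXD3 was lowest there in both, at 178 without IWR-1 and 289 with it, against 194 to 1443 and 314 to 1705 elsewhere. SOX10 was lowest there without IWR-1 only (112 against 151 to 205), and ZIC1 lay within the range of the other lines. Endoderm and hypoblast markers summed to 806 without IWR-1 and 850 with it, against 131 to 232 without and 150 to 243 with it elsewhere. PDGFRA, which is also in the fibroblast list, gave 771 and 817 of these sums in line 4 and was the only 1 of the 6 that was highest there in both media, while GATA4 and SOX17, which define that lineage, stayed at 2.02 or less and 1.97 or less in every well. Trophectoderm markers summed to 8707 without IWR-1 and 3998 with it in line 4, against 16350 to 56725 without and 11330 to 29087 with it elsewhere. These sums were mostly the keratins KRT8 and KRT18, which were lowest in line 4. The transcription factors TFAP2A (428 and 376), TFAP2C (78.5 and 52.4) and CDX2 (86.6 and 1.19) were highest there in both media. The CDX2 value with IWR-1 was 1 read, against 0 elsewhere. GATA2, GATA3 and ELF5 were not highest there in both media. GATA3 was lowest there with IWR-1, at 3.57, against 4.63 to 27.3 elsewhere. The part of these markers in the antagonist levels of line 4 was not tested. Between the media, limma called NANOG (log2 fold change 0.33), ACTA2 (0.87), TAGLN (0.90), PAX3 (1.32), KRT8 (0.79) and KRT18 (0.96) higher without IWR-1 (adjusted p of 0.0411 or less). These were 1 of 8 tested stem cell, 2 of 20 fibroblast, 1 of 6 neural and 2 of 4 trophectoderm markers, where 0.886% of all tested genes rose. The fibroblast and trophectoderm sums were higher without IWR-1 in 5 of 5 lines, the stem cell sum in 0.

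In the mouse table the lines differed for 6 of 7 tested members (limma F test of the line term, adjusted p under 0.05), where 35.1% of all tested genes did. Wif1 was the exception (adjusted p = 0.219). Sfrp2 (adjusted p = 6.45e-08) ran from line 4 through 1, 2 and 8 to 11, with a mean of 1134 in line 4 and of 136 in line 8, which overlapped line 11. Dkk2 (adjusted p = 1.1e-06) was separate in line 11, at 8261, and in line 1, at 2608, and lines 8, 4 and 2 overlapped between them. Sfrp4 (adjusted p = 2.93e-05) was separate in line 1, at 151, and in line 11, at 4.87. Dkk3 (adjusted p = 4.15e-05) was separate in line 11, at 861, with the other lines between 1456 and 1686. Sfrp1 (adjusted p = 9.16e-05) was separate in line 4, at 144, and line 11, at 248, and Frzb (adjusted p = 0.00399) in line 8, at 435. These lines are stem cell lines, so in this table the term compares the feeders of their wells.

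Because both species shared a well, the reads of each antagonist could be divided between its bovine and its mouse gene. DKK2 reads lay mostly on the mouse gene: in lines other than 4 the bovine gene had at most 0.397% as many reads as the mouse gene. In line 4 it had 9.08% without IWR-1 and 9.43% with it, while mouse Dkk2 in line 4, at 4950 and 3158 normalised reads, lay within the range of the other lines. WIF1 was likewise mostly mouse outside line 4, with 87.5% to 100% of the reads on the mouse gene, against 57.1% (95% Wilson interval 49.5 to 64.3) without IWR-1 and 65.2% (58.0 to 71.8) with it in line 4.

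SFRP1 reads lay almost wholly on the bovine gene, with 0.711% (95% Wilson interval 0.628 to 0.804) on the mouse gene at the lowest, in line 11 without IWR-1, and 3.67% (3.22 to 4.18) at the highest, in line 4 without IWR-1. Both the bovine and the mouse gene were lowest in line 4. Whether bovine reads entered the mouse count was not tested for Sfrp1 or for any other member. For SFRP2 the mouse gene had 5.42%, 3.78%, 18.4%, 1.16% and 0.600% of the reads in lines 1, 2, 4, 8 and 11 without IWR-1, against 3.71%, 3.21%, 11.9%, 0.785% and 0.466% with it. The mouse part was higher without IWR-1 in 5 of 5 lines, although the mouse share of all reads was lower in all 5. In lines 8 and 11 without IWR-1 the mouse gene had 155 and 136 reads, against 13192 and 22529 on the bovine gene. DKK3 was more evenly divided, with 20.3% to 49.9% on the mouse gene without IWR-1 and 19.5% to 40.0% with it. FRZB had 16.9% to 37.0% without IWR-1 and 20.3% to 36.3% with it. Such intervals cover counting error only. Line 4 also had the highest mouse share of all reads, and its part in these percentages was not tested.

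**Figure D4:**
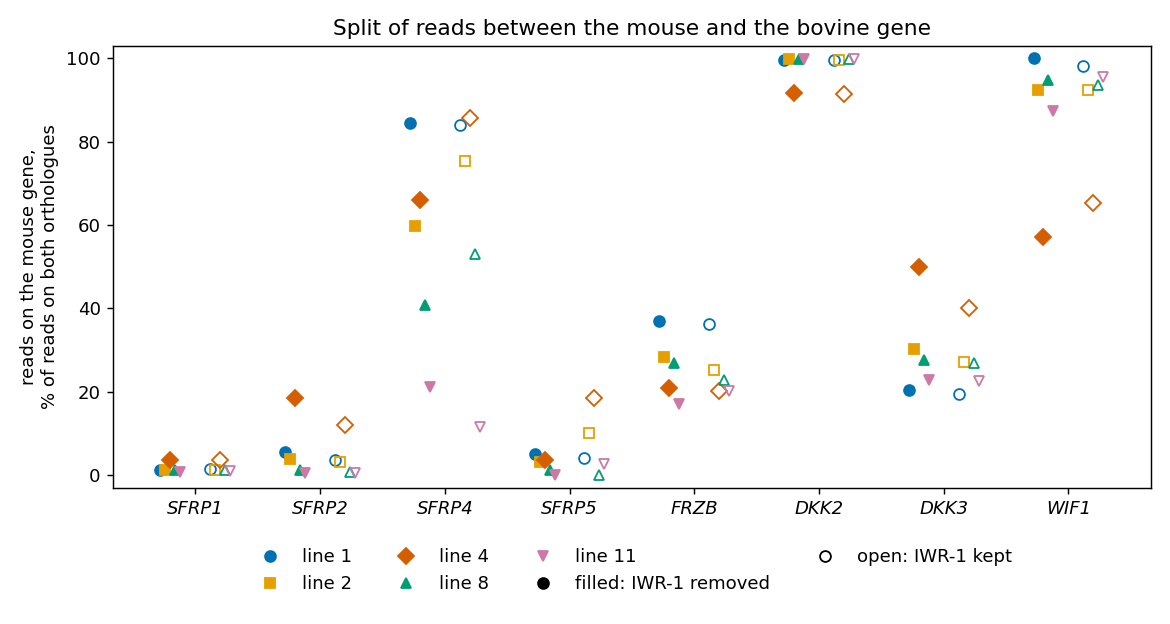
Reads on the mouse gene as a percent of the reads on both orthologues, for the 8 antagonists in 10 libraries. Filled symbols are wells without IWR-1 and open symbols wells with it. Outside line 4, DKK2 lies at 99.6% or more and WIF1 at 87.5% or more. SFRP1 stays between 0.711% and 3.67%, and DKK3 and FRZB lie between. SFRP4 and SFRP5, on few reads, range from 11.4% to 85.7% and from 0% to 18.5%.

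The other parts of the pathway could be read by name only in the bovine table. Of 19 tested Wnt/beta-catenin target genes 7 rose and 0 fell, with a median log2 fold change of 0.61, against the share of 0.886% given above for all genes. The 7 were the cell cycle gene CCND1 (1.15), the homeobox genes MSX1 (1.83) and MSX2 (0.94), the feedback inhibitors NKD1 (1.39) and AXIN2 (0.74), the pathway transcription factor TCF7 (0.61) and LGR5 (0.89), which encodes a receptor for R-spondins. LEF1, another transcription factor of the pathway, was at 0.61 and not called (limma adjusted p = 0.181). Several genes of this list were known to be higher in these data when it was written. AXIN2, LEF1 and CCND1 were highest in line 4 in both media. AXIN2 stood at 5945 and 3202 there, without and with IWR-1, against 335 to 1091 and 228 to 461 elsewhere. LEF1 stood at 6264 and 3038, against 95.6 to 636 and 119 to 326. Some genes of the list were not highest there, and PROX1 was lowest, at 532 and 628, against 1280 to 3697 and 1969 to 3892. The part of these genes in the antagonist levels of line 4 was not tested.

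Among 9 tested further secreted antagonists and their co-receptors 0 rose and 0 fell in limma (median log2 fold change 0.13). DKK1, which binds LRP5 and LRP6, averaged 69.1 ± 64.9 normalised reads without IWR-1 and 35.1 ± 53.1 with it (SD, n = 5 each; log2 fold change 1.45, limma adjusted p = 0.113). NOTUM, a secreted enzyme that inactivates Wnt, was at 0.52, APCDD1 at 0.14 and DKK4 at 0.61, none of them called. Of 15 tested receptors and co-receptors 1 rose and 0 fell: ROR2, a receptor for non-canonical Wnt ligands, averaged 2831 ± 1359 normalised reads without IWR-1 and 2157 ± 1003 with it (SD, n = 5 each; log2 fold change 0.38 ± 0.06 SE, limma adjusted p = 0.0207). Of 9 tested R-spondins, their receptors and the ligases ZNRF3 and RNF43, LGR5 alone rose and 0 fell. Of 12 tested Wnt ligands 0 were called in limma, with WNT4 at -0.41, WNT5B at 0.25, WNT1 at -0.63 and WNT7B at 0.51.

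The bovine genes whose profile over the 10 libraries was closest to a member's were found by the root mean square difference between centred log2 values, over 12884 named genes (12885 for SFRP4) with a mean of at least 1 CPM. For SFRP1, whose own spread was 0.83 on this scale, they were SLC7A8 (0.16), SP7 (0.17) and SHISA9 (0.17). For SFRP2, with a spread of 0.42, they were REEP5 (0.091), ITGA5 (0.14) and FBLN2 (0.14). For FRZB, with a spread of 0.79, they were FLVCR2 (0.17), CLMN (0.18) and CCDC60 (0.21), and for DKK3, with a spread of 0.20, CMSS1 (0.075), MCM7 (0.075) and GPR75 (0.078). SFRP4 and SFRP5 had looser neighbours relative to their spreads of 0.51 and 0.27, the nearest being DHRS7 (0.27) and RSAD1 (0.16). These are descriptions over 5 lines with 2 wells each, and the level of line 4 or 11 weighs heavily in them.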

How the data were processed

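The co-culture libraries gave a bovine table (ARS-UCD1.3) and a mouse table (GRCm39), builds per the labels, each deposited by the authors as a normalised signal for every gene in every library. Per the submitters' processing notes the tools included featureCounts 1.5.0-p3, StringTie 1.3.3b, HISAT2 2.0.5 and fastp. The deposited signal values of each library were whole multiples of the value of 1 read (100% of positive values at a tolerance of 0.01 reads), and dividing by it gave recovered reads; no label records that scaling. Of the mouse columns 2 match no sample and were left aside, though the mouse size factors may have been set with them. Of 27590 bovine rows 24660 matched by ID to RefSeq genes (assembly ARS-UCD2.0), and 313 rows (0.337% of reads) were unannotated genes.

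The tables hold scaled values, not raw counts, so limma 3.58.1 (R 4.3.3, intensity trend) on log2(value + 1) was the main test, with medium and line as terms. A fold change on that scale understates the change of low genes. The design text has each line divided over 1 well per medium, so the line was a block; deviations of paired wells from the group means correlated at 0.617 to 0.883 in the bovine and 0.488 to 0.725 in the mouse table. P-values measure the spread of the change between lines, which holds differences between wells, 1 per line and medium. Alternatives were no block, edgeR 4.0.16 and DESeq2 1.42.0 on recovered reads, TMM and total scaling on log2(CPM + 1) and, chosen after seeing the data, at the deposited scale, pseudocounts of 0.5 and 5, no filter, a minimum of 50, the mouse share as a covariate and leaving out each line (minimum in 4 libraries). The main fit, the fit without the block, edgeR and DESeq2 were run on simulated data with known changes, and the other alternatives were not. Recovery rates are not given here. The members and gene lists were chosen with earlier results of these data known. Named genes are all members, up to 4 genes per list by adjusted p and any called, AXIN2, LEF1 and CCND1, POU5F1, SOX2, NANOG, COL1A1, COL1A2 and VIM as cell type checks, and the 3 genes closest in profile to a tested member. FAP, GATA4, SOX17 and the other neural, endoderm and trophectoderm markers given for line 4 were named after their values were seen.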

Additional observations from a re-analysis of the deposited data

Results flagged for a closer look

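In 10 of 45 groups of 5 values tested (levels per medium and changes within lines), 1 library lay far from the other 4 by Dixon's criterion; chance does so in about 1 in 20 groups, and values of 1 gene in both media are not independent. All 10 were levels, and none was a change within a line. Bovine DKK2 in line 4 reached 863 normalised reads without IWR-1 and 588 with it, against 1.95 to 10.4 without and 3.89 to 11.6 with it elsewhere. Bovine WIF1 in line 4 reached 84.3 without IWR-1 and 75.0 with it, against 0 to 13.6 and 2.02 to 6.30. Bovine SFRP2 in line 11 reached 21919 without IWR-1 and 21144 with it, against 9956 to 12297 and 8607 to 12068. In the mouse table Frzb in line 8 reached 530 without IWR-1 and 340 with it, against 200 to 280 and 195 to 221. Mouse Dkk2 in line 11 reached 9712 without IWR-1, against 3228 to 4950, and mouse Dkk3 in line 11 was low at 699 with IWR-1, against 1238 to 1385.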

How the results depend on the processing

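Without the line as a block, limma called 0 members and 0 genes in either table (105 bovine and 584 mouse genes at an unadjusted p under 0.05), and with the mouse share as a covariate beside the block it again called 0 members and 0 genes (456 and 687 at an unadjusted p under 0.05). Under each of the other alternatives run with the block, mouse Sfrp2, Dkk2 and Dkk3 kept their calls and 0 bovine members were called. Genes called numbered 176 in the bovine table, against 420 with DESeq2, 190 with edgeR, 90 with total scaling on log2(CPM + 1), 128 with totals at the deposited scale, 53 without a filter and 31 to 185 with 1 line left out (36 without line 1, 102 without line 4, 31 without line 11). They numbered 665 in the mouse table, against 907 with DESeq2, 727 with edgeR, 329 without a filter and 270 to 935 with 1 line left out (319 without line 1, 283 without line 4, 270 without line 11). Mouse genes that differed between lines numbered 5574, against 3669 to 6462 with 1 line left out, lowest without line 11. Of 225 member estimates under an alternative, 8 changed sign, all of members not called: bovine SFRP1 (-0.13 to 0.0029 with 1 line left out, above 0 without line 4), bovine FRZB (0.0086 with the covariate), bovine DKK2 (0.07 as the mean change over lines, -0.0062 without line 8), mouse Sfrp1 (-0.10 to 0.069 with 1 line left out), mouse Sfrp4 (-0.62 with the covariate) and mouse Wif1 (-0.70 with the covariate, -0.14 to 0.17 with 1 line left out). Bovine SFRP4 was 0.14 and bovine SFRP5 0.17 and 0.16 on log2(CPM + 1) with TMM and total scaling. With the same scalings at the deposited scale, added after seeing the data, SFRP4 was 0.48 and 0.47 and SFRP5 0.30 and 0.28, so those shifts came with the smaller values that the pseudocount was added to. The causes of the other shifts were not tested. Members under about 100 normalised reads rest on few reads, and differences of the size seen in Sfrp5, bovine WIF1 outside line 4 and bovine DKK2 outside line 4 were not detectable at this depth.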
